A study of Ipomoea batatas with 12 samples.

Results

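Light receptors, circadian clock proteins and the flowering-time proteins that read them were followed in sweetpotato roots, an organ that grows in soil. The genes were those whose deposited description names a phytochrome, cryptochrome, phototropin, CONSTANS, SHORT HYPOCOTYLS, GIGANTEA, two-component response regulator-like, EARLY FLOWERING, FLOWERING LOCUS T, HEADING DATE, adagio, LHY or REVEILLE protein, with bHLH and PIF proteins set aside. The rule found 98 genes of the 45142 in the table and used no expression value. It took in 27 CONSTANS-like genes, 20 SHORT HYPOCOTYLS genes, 11 pseudo-response regulators, 10 LHY and REVEILLE genes, 6 cryptochromes, 5 phytochromes, 5 genes for phytochrome partner proteins, 5 EARLY FLOWERING genes, 4 HEADING DATE genes, 3 GIGANTEA genes and 1 phototropin. No description held the words adagio or FLOWERING LOCUS T, and 1 gene, the GDSL lipase g50470, was caught only because acylhydrolase contains the letters lhy; it rose at 4 months against 20 days in both genotypes and is counted but not described. Of the 98 genes, 44 also carried the deposited annotation for the circadian rhythm pathway.

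The series held 12 root RNA-seq libraries. Roots overexpressing MBP3 (MBP3-OE) gave 3 libraries, numbered 2, 3 and 8, at each of 20 days, 1 month and 4 months, and wild-type (WT) roots of cultivar Taizhong 6 gave 1 library at each of the same ages. The WT plants were grown in a greenhouse, and each WT sample came from the roots of several plants. The paper that reported the WT libraries does not describe the cultivar or growth of the MBP3-OE plants. The sources used here give neither the promoter that drives MBP3, nor whether the numbers 2, 3 and 8 are plants or lines, nor the hour at which roots were collected. The WT libraries are labelled 20 days, 1 month and 4 months, whereas the series text gives 20, 60 and 120 days after planting for these root stages, so that the age of the 1-month WT roots is uncertain.

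Phytochromes sense red and far-red light, cryptochromes and phototropins sense blue light, and all of them are best known from shoots, although roots make them too. The plant clock is a loop in which the morning protein LHY and the pseudo-response regulators repress each other through the day, while GIGANTEA and the EARLY FLOWERING proteins act towards evening. CONSTANS carries the clock's timing to the flowering genes, and the LIGHT-DEPENDENT SHORT HYPOCOTYLS (LSH) proteins, named from Arabidopsis seedlings, are small nuclear proteins of the ALOG family that act in meristems and at organ boundaries.

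Library totals ran from 39424503 to 58486728 counts. MBP3 itself (g4107) stood at 67.3 to 78.4 FPKM in MBP3-OE roots and 15.3 FPKM in WT roots at 20 days, at 29.7 to 58.4 and 23.2 FPKM at 1 month, and at 55.8 to 121 and 83.2 FPKM at 4 months, so its level did not separate the genotypes at 4 months. The spread between replicates grew with age, with a common biological coefficient of variation, fitted by edgeR over all tested genes of a group, of 0.235, 0.407 and 0.503 at 20 days, 1 month and 4 months. Storage-root genes (45 genes) summed to 532 to 1259, 3452 to 13820 and 67060 to 137400 FPKM at the successive ages in MBP3-OE roots, and to 218.7, 2329 and 91880 FPKM in WT roots. A list of 39 genes typical of green tissue, which roots kept in the dark hardly use, summed to 124 to 297, 447 to 1703 and 6085 to 11850 FPKM in MBP3-OE roots, and to 128.5, 387 and 1245 FPKM in WT roots. Fibrous-root genes (14 genes) summed to 84.0 to 112, 76.1 to 84.5 and 50.3 to 68.7 FPKM in MBP3-OE roots and to 76.5, 108.6 and 68.0 FPKM in WT roots. Cambium and xylem genes (14 genes) moved the other way from most of the genes described here, with sums of 75.5 to 120, 38.8 to 96.9 and 19.7 to 27.5 FPKM in MBP3-OE roots and of 71.7, 61.6 and 16.5 FPKM in WT roots. Of their 9 tested genes, 7 fell at 4 months against 20 days in MBP3-OE roots and 3 in WT roots. None of the green-tissue genes was at 0 in every library, and the part of these lists in the results was not tested. In whole roots, fewer cells of a type and less RNA per cell cannot be told apart.

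Of the 98 genes, 80 averaged 0.5 FPKM or more across all 12 libraries and were tested. The other 18 averaged at most 0.423 FPKM, none above 1.40 FPKM in any library, and none was at 0 in all 12. Of the tested genes, 15 averaged under 0.5 FPKM in at least 1 of the 6 groups. A gene was called changed where edgeR's quasi-likelihood test, fitted on all 28065 genes that passed the filter, gave a Benjamini-Hochberg adjusted p under 0.05 and a change of at least 2-fold. Changes are log2 fold changes of later over earlier roots or of MBP3-OE over WT roots, with the standard error of the fit. Since each WT group is 1 library, its spread was taken from the MBP3-OE libraries, and p-values measure only the spread between these samples.

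With age the genes moved mostly upward in MBP3-OE roots. At 1 month against 20 days, 20 of the 80 rose and 2 fell, where 5.70% and 3.49% of all tested genes were called in those directions. At 4 months against 20 days, 37 rose and 4 fell, where 17.5% and 17.8% of all genes did. At 4 months against 1 month, 27 rose and 3 fell, against 7.48% and 9.56% of all genes. The median log2 change of the 80 genes at 4 months against 20 days was 0.90 in MBP3-OE roots, beside 0.03 over all tested genes, and 1.25 in WT roots. The LSH family, the phytochromes and the pseudo-response regulators, with 16, 5 and 9 of the 80 tested genes, held 24 of the 37 increases. Of the 80 genes, 27 were called in none of the comparisons between ages in either genotype. In WT roots 29 genes rose and 6 fell at 4 months against 20 days, where 11.5% and 9.15% of all genes did, and 24 of those 29 also rose in MBP3-OE roots, which is 82.8% of the WT increases and 64.9% of the MBP3-OE ones. The same overlap over all tested genes is not given here, so these 2 percentages cannot be read as particular to the 80 genes. At 1 month against 20 days 4 genes rose and none fell in WT roots, against 0.110% and 0.0677% of all genes, and at 4 months against 1 month 4 rose and 4 fell, against 2.99% and 2.12%. The WT count of 4 became 0 when any 1 of 8 of the 9 MBP3-OE libraries was left out and 8 without the 4-month replicate 2, and the count of 8 became 19 without that same library and 5 without the 20-day replicate 8. The count of 22 in MBP3-OE roots at 1 month became 14 without the 20-day replicate 2.

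Most red-light receptors rose with age. All 5 phytochromes were tested, and 4 of them rose at 4 months against 20 days in MBP3-OE roots and in WT roots, with a median change over the 5 of 1.78 in MBP3-OE roots and 2.04 in WT roots. Over all tested genes 17.5% rose in MBP3-OE roots and 11.5% in WT roots. Phytochrome E (g37417, linkage group 9, 25659705 to 25665254, in coordinates of the authors' genome, whose build the sources used here do not name) is a red-light receptor of the phytochrome B branch. It stood at 1.08, 0.764 and 1.03 FPKM at 20 days, 3.38, 3.37 and 4.49 FPKM at 1 month and 7.57, 8.78 and 5.72 FPKM at 4 months in MBP3-OE roots, and at 0.20, 2.92 and 4.00 FPKM in WT roots at the same ages. No library of one age overlapped another in MBP3-OE roots, and the WT libraries lay below the MBP3-OE ones at every age. The change at 4 months against 20 days was 3.21 ± 0.23 (edgeR adjusted p = 7.29e-05) in MBP3-OE roots and 4.41 ± 0.43 (adjusted p = 0.00178) in WT roots.

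The phytochrome B-like gene g13495 stood at 0.981, 0.724 and 0.474 FPKM at 20 days, 1.28, 2.05 and 2.15 FPKM at 1 month and 6.71, 12.1 and 7.44 FPKM at 4 months in MBP3-OE roots, and at 0.485, 1.81 and 5.91 FPKM in WT roots. Its increase at 4 months against 20 days was 3.86 ± 0.32 in MBP3-OE roots and 3.71 ± 0.56 in WT roots. Phytochrome B (g41655), the main receptor of stable red-light responses, stood at 12.4, 15.1 and 10.8 FPKM at 4 months against 3.59, 4.81 and 5.05 FPKM at 20 days in MBP3-OE roots, and at 9.97 against 2.61 FPKM in WT roots. These were increases of 1.78 ± 0.19 and 2.04 ± 0.33, and the ages did not overlap. Phytochrome A2 (g22825, linkage group 6, 14640811 to 14652966) is of the branch that reads far-red and very weak light. It was the most strongly expressed of the 5 by FPKM, a unit that divides by exon length. In MBP3-OE roots it reached its higher level by 1 month, with 12.1, 14 and 13.1 FPKM at 20 days, 34.7, 29.5 and 28.4 FPKM at 1 month and 28.4, 37.6 and 31.5 FPKM at 4 months. In WT roots it stood at 11.6, 20.1 and 32.4 FPKM. Its change at 1 month against 20 days was 1.17 ± 0.17 (edgeR adjusted p = 0.00573) in MBP3-OE roots. Phytochrome C (g59038) was the exception, at 7.82, 7.34 and 4.20 FPKM at 4 months against 4.90, 3.88 and 4.43 FPKM at 20 days in MBP3-OE roots, where the ages overlapped and the change of 0.83 ± 0.23 was under 2-fold.

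**Figure D1:**
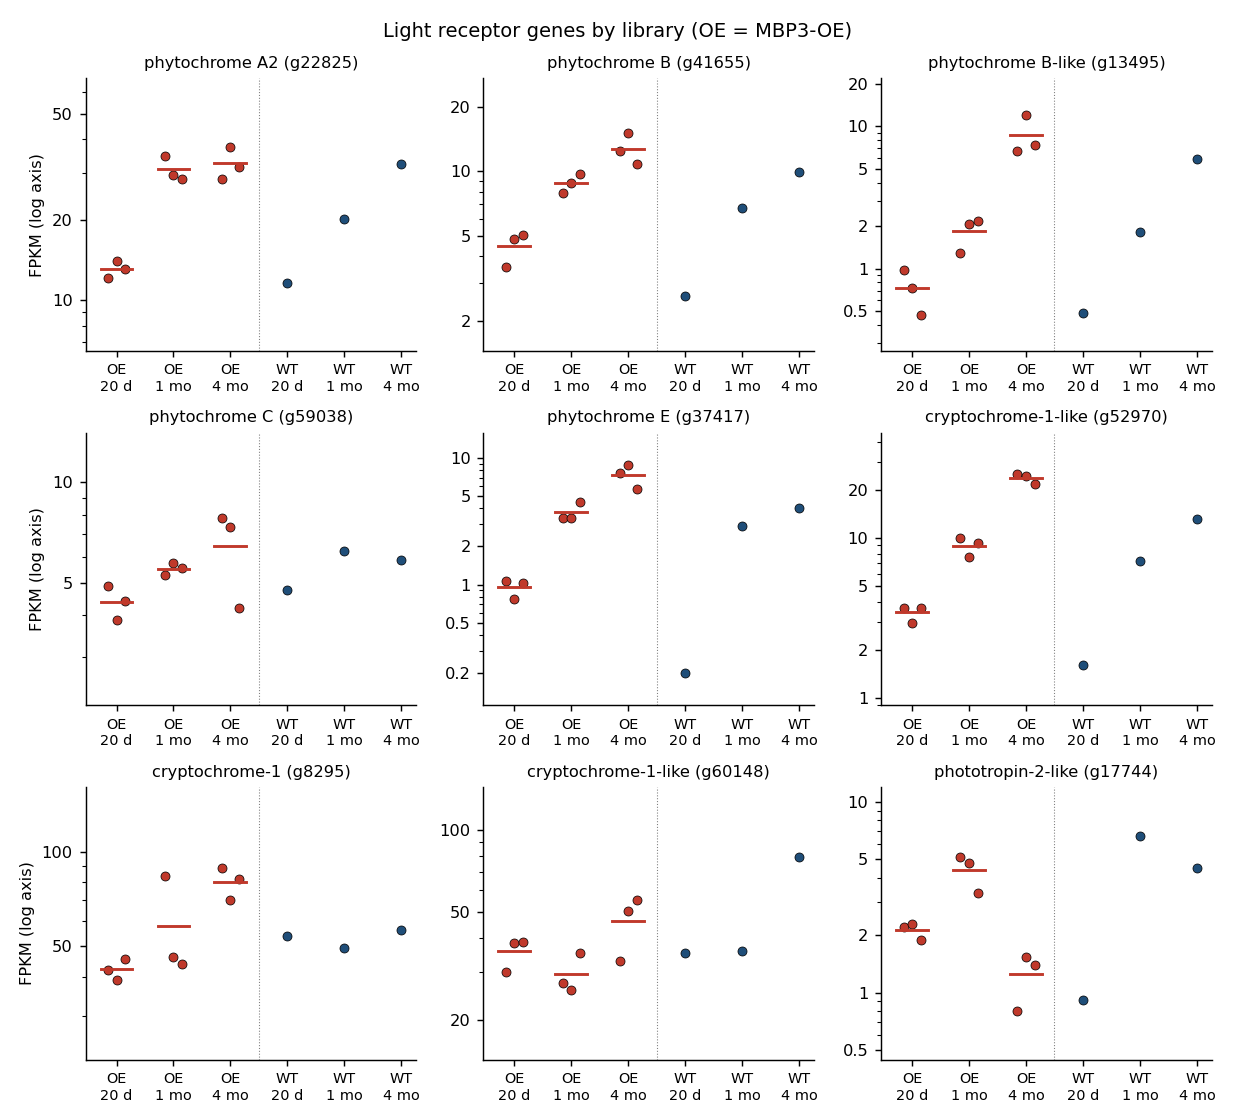
FPKM on log axes for 9 light receptor genes, 1 panel each, with the MBP3-OE (OE) groups on the left and the WT groups on the right of the dotted line, each at 20 days (20 d), 1 month (1 mo) and 4 months (4 mo). Red points are MBP3-OE libraries with a line at their mean and blue points are the single WT libraries; phytochrome E stands at 5.72 to 8.78 FPKM at 4 months against 0.764 to 1.08 FPKM at 20 days in MBP3-OE roots, whereas phototropin-2-like is highest at 1 month.

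Blue-light receptors were less uniform. Of the 6 cryptochromes, 2 rose and none fell at 4 months against 20 days in MBP3-OE roots, and 3 rose in WT roots, where 17.5% and 11.5% of all genes rose in the same comparisons. At 4 months against 1 month 3 rose in MBP3-OE roots. Cryptochrome-1-like g52970 stood at 3.66, 2.96 and 3.66 FPKM at 20 days, 9.97, 7.59 and 9.34 FPKM at 1 month and 25.4, 24.6 and 21.8 FPKM at 4 months in MBP3-OE roots, and at 1.62, 7.16 and 13.3 FPKM in WT roots. It rose at each age without overlap, by 3.09 ± 0.20 (edgeR adjusted p = 5.58e-05) over the whole span in MBP3-OE roots and by 3.14 ± 0.35 in WT roots. Cryptochrome 1 g8295, the most abundant of the family at 20 days, stood at 88.9, 70.1 and 81.6 FPKM at 4 months against 42.0, 39.1 and 45.6 FPKM at 20 days in MBP3-OE roots, an increase of 1.22 ± 0.30, and at 56.1 against 53.7 FPKM in WT roots. Cryptochrome 1 g60084 held 8.6 to 13.5 FPKM at 4 months in MBP3-OE roots, against 6.39 to 7.03 FPKM at 1 month and 6.68 to 7.85 FPKM at 20 days. This was an increase of 1.02 ± 0.18 against 1 month and a change of 0.85 ± 0.18, under 2-fold, against 20 days. In WT roots it stood at 23.0 FPKM at 4 months against 7.24 FPKM at 20 days, an increase of 1.77 ± 0.32. Its neighbour g60085 begins 585 bp beyond its end on the same strand, so that reads of the pair may have been divided between them. Cryptochrome DASH (g38057), a repair-type flavoprotein of chloroplasts and mitochondria that was named here after its values were seen, was called only in WT roots, at 3.23 FPKM at 4 months against 0.917 FPKM at 20 days.

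The single phototropin, phototropin-2-like g17744, a blue-light receptor kinase that steers growth and chloroplast movement, had a peak at 1 month. It stood at 2.21, 2.28 and 1.9 FPKM at 20 days, 5.11, 4.76 and 3.34 FPKM at 1 month and 0.803, 1.54 and 1.40 FPKM at 4 months in MBP3-OE roots, and at 0.912, 6.61 and 4.49 FPKM in WT roots. The 3 MBP3-OE groups did not overlap. It fell by 1.48 ± 0.27 on the log2 scale at 4 months against 1 month in MBP3-OE roots (edgeR adjusted p = 0.00815), and rose by 2.40 ± 0.48 at 4 months against 20 days in WT roots (adjusted p = 0.0111). The difference between the genotypes in that 4-month change was -2.91 ± 0.54, with an edgeR adjusted p of 0.131. Of the 5 genes for phytochrome partners, which bind phytochromes, are phosphorylated by them or remove their phosphates, 3 were tested and none was called at 4 months against 20 days in either genotype.

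The LSH genes rose widely with age. Of the 16 tested, 12 rose at 1 month and 14 at 4 months against 20 days in MBP3-OE roots, 11 rose at 4 months in WT roots, and none fell in any of these comparisons. Over all tested genes 5.70%, 17.5% and 11.5% rose in the same comparisons, and 3.49%, 17.8% and 9.15% fell. The median change at 4 months against 20 days was 3.31 in MBP3-OE roots and 2.68 in WT roots. LSH10-like g43482 (linkage group 11, 14378180 to 14378953) stood at 2.53, 1.77 and 2.27 FPKM at 20 days, 25.9, 13.1 and 27.5 FPKM at 1 month and 93.9, 85.0 and 107 FPKM at 4 months in MBP3-OE roots, and at 2.42, 13.0 and 71.0 FPKM in WT roots. Both genotypes climbed in the same order, and the change at 4 months against 20 days was 5.73 ± 0.37 (edgeR adjusted p = 5.58e-05) in MBP3-OE roots and 4.97 ± 0.62 (adjusted p = 0.00275) in WT roots. LSH10-like g63910 (linkage group 15, 29294140 to 29295267) followed the same course, with 1.59, 2.81 and 2.62 FPKM at 20 days, 18.7, 16.8 and 15.4 FPKM at 1 month and 77.9, 68.3 and 53.0 FPKM at 4 months in MBP3-OE roots, and 0.995, 9.78 and 43.8 FPKM in WT roots. Its increase was 5.09 ± 0.31 in MBP3-OE roots.

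A second set of LSH10-like genes, g34616, g34656 and g34665, lies on linkage group 9 with at most 343.672 kb between them and had reached much of its higher level by 1 month. In g34616 the libraries held 4.99, 7.24 and 5.01 FPKM at 20 days, 21.9, 23.6 and 23.9 FPKM at 1 month and 28.7, 31.1 and 32.4 FPKM at 4 months in MBP3-OE roots, and 2.54, 16.8 and 11.9 FPKM in WT roots. The increase at 1 month against 20 days was 1.93 ± 0.19 for g34616, 1.82 ± 0.19 for g34656 and 1.79 ± 0.18 for g34665 in MBP3-OE roots, each with an edgeR adjusted p of at most 0.00269. From 1 month to 4 months the fitted changes of these genes were 0.54 to 0.81 and under 2-fold. Mean levels of g34616, g34656 and g34665 in MBP3-OE roots were close, at 5.75, 7.14 and 6.09 FPKM at 20 days and 30.8, 30.3 and 30.5 FPKM at 4 months. The LSH3-like pair g5289 and g5292, 32.173 kb apart on linkage group 2, rose at both steps in MBP3-OE roots. They averaged 0.243 ± 0.127 and 0.263 ± 0.0888 FPKM at 20 days, 1.9 ± 1.41 and 1.38 ± 0.672 FPKM at 1 month and 10.5 ± 5.40 and 8.20 ± 4.03 FPKM at 4 months in MBP3-OE roots (SD, n = 3 each). In WT roots g5292 had 496 counts at 4 months and none at 20 days, which is at least 155-fold higher against a floor of 3 counts. Gene g5289 also had 496 counts in the 4-month WT library. Whether reads were shared within this pair or within the linkage group 9 set was not tested.

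Single LSH genes of other names followed the same direction. LSH4-like g8287 averaged 8.96 ± 2.05 FPKM at 4 months against 0.870 ± 0.105 FPKM at 20 days in MBP3-OE roots, an increase of 3.63 ± 0.25, and stood at 0.438 FPKM at 20 days in WT roots. LSH5-like g9919 averaged 16.9 ± 5.76 against 0.986 ± 0.411 FPKM (4.39 ± 0.44), and LSH1-like g20212 averaged 11 ± 2.71 against 1.15 ± 0.382 FPKM (3.51 ± 0.30). The 2 tested genes that were not called were LSH10-like g46133 and LSH1-like g25696. In g46133, the family's most abundant gene at 20 days, MBP3-OE roots held 48.6, 25.6 and 23.6 FPKM at 4 months against 39.2, 23.4 and 24.1 FPKM at 20 days, a change of 0.49 ± 0.42, so that the ages overlapped throughout. The 4 LSH genes left untested averaged at most 0.423 FPKM. The sum of the 39 green-tissue genes, given above, also climbed with age in both genotypes, and its part in the LSH increases was not tested.

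**Figure D2:**
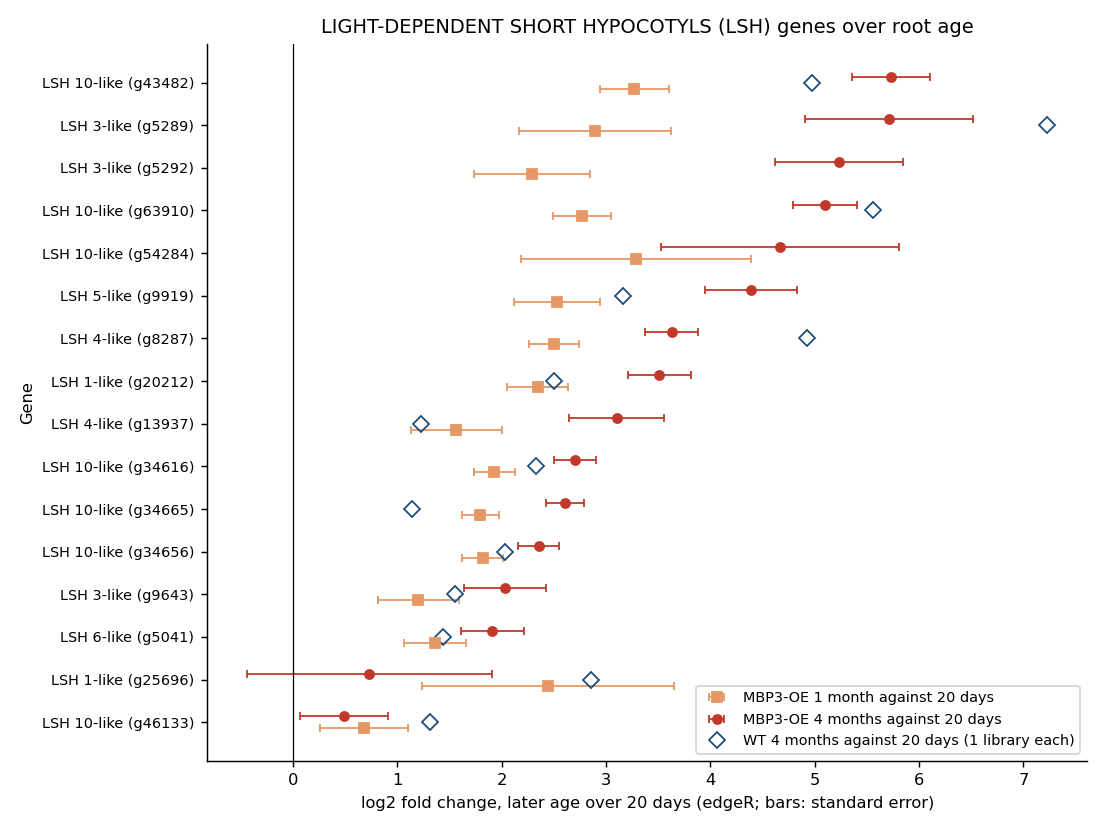
Log2 fold change against 20 days (edgeR) of the 16 tested LSH genes, with squares for MBP3-OE roots at 1 month, circles for MBP3-OE roots at 4 months, bars for their standard errors, and open diamonds for WT roots at 4 months, which rest on 1 library per age; no diamond is drawn for g5292 and g54284, which had no count in the 20-day WT library. In MBP3-OE roots at 4 months the changes run up to 5.73 for g43482, while g46133 and g25696 lie at 0.49 and 0.73.

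Among the clock genes the most abundant at 20 days were not called at 4 months against 20 days in MBP3-OE roots. Several genes that stood lower at 20 days rose. LHY (g33907, linkage group 8, 26515956 to 26523604), the morning repressor, stood at 21.7, 27.6 and 26.9 FPKM at 20 days, 26.8, 35.2 and 32.2 FPKM at 1 month and 20.9, 36.4 and 22.4 FPKM at 4 months in MBP3-OE roots, where the ages overlapped. In WT roots it stood at 33.7, 49.2 and 4.92 FPKM, so the 4-month WT library lay below all others. The change at 4 months against 20 days was 0.32 ± 0.20 in MBP3-OE roots and -2.67 ± 0.37 (edgeR adjusted p = 0.00344) in WT roots, and the difference of 2.98 ± 0.42 had an adjusted p of 0.0853. Because clock transcripts swing over each day and no hour of collection is given, age, genotype and hour of day cannot be told apart for these genes.

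Of the 8 tested LHY and REVEILLE genes, which code for related MYB proteins, 1 rose and 1 fell at 4 months against 20 days in MBP3-OE roots, where 17.5% and 17.8% of all genes did. REVEILLE 2-like g510 was the one that fell, to 0.540, 0.543 and 0.601 FPKM at 4 months against 2.87, 3.41 and 4.37 FPKM at 20 days, and it was already at 0.426, 0.843 and 0.641 FPKM at 1 month. In WT roots it stood at 1.94, 1.49 and 2.5 FPKM at the successive ages. The change at 4 months against 20 days was -2.37 ± 0.31 (edgeR adjusted p = 0.000616) in MBP3-OE roots and 0.47 ± 0.51 (adjusted p = 0.532) in WT roots, and the test of the difference gave an adjusted p of 0.169.

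Pseudo-response regulators repress LHY in turn through the day. Their median change at 4 months against 20 days was 1.96 in MBP3-OE roots. Of the 9 tested, 6 rose and none fell there, where 17.5% and 17.8% of all genes did. In WT roots 4 rose and 1 fell, where 11.5% and 9.15% of all genes did. The 3 most abundant were not among these increases. PRR73 g31109 stood at 64.5, 103 and 99.1 FPKM at 4 months against 95.3, 79.6 and 78.6 FPKM at 20 days in MBP3-OE roots, and at 90.1 against 79.9 FPKM in WT roots. APRR7 g30584 stood at 36.7 to 51.1 FPKM at 4 months against 53.6 to 59.0 FPKM at 20 days in MBP3-OE roots, with a change of -0.14 ± 0.15. APRR5 g871 (linkage group 1, 5087173 to 5090485) stood at 46.2, 49.2 and 56.2 FPKM at 20 days, 32.7, 34.7 and 30.6 FPKM at 1 month and 96.8, 75.2 and 45.8 FPKM at 4 months in MBP3-OE roots, and at 64.5, 24.9 and 6.80 FPKM in WT roots. It rose by 1.51 ± 0.27 at 4 months against 1 month in MBP3-OE roots (edgeR adjusted p = 0.00789), and fell by 3.14 ± 0.50 at 4 months against 20 days in WT roots (adjusted p = 0.0051).

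The increases were those of the less abundant regulators, which stood lower at 20 days. APRR5 g27243 stood at 27.3, 11.9 and 20.9 FPKM at 4 months against 2.70, 2.64 and 4.17 FPKM at 20 days in MBP3-OE roots, an increase of 2.97 ± 0.46, and at 3.68 against 0.508 FPKM in WT roots. APRR5 g27036 stood at 12.7, 6.78 and 6.83 against 1.01, 1.08 and 1.58 FPKM in MBP3-OE roots (3.14 ± 0.55) and at 1.36 against 0.180 FPKM in WT roots. In both genes every MBP3-OE library lay above the WT library at 20 days and at 4 months. At 1 month this held for g27036, at 0.959, 0.787 and 2.75 FPKM against 0.441 FPKM in WT roots. It did not hold for g27243, at 2.87, 2.76 and 6.22 FPKM against 2.96 FPKM in WT roots. PRR73 g35141 stood at 0.203, 0.169 and 0.0297 FPKM at 20 days, 0.767, 2.78 and 2.75 FPKM at 1 month and 13.9, 4.09 and 12.3 FPKM at 4 months in MBP3-OE roots, an increase of 6.52 ± 0.87 over the span. In WT roots it had 121 counts at 4 months against none at 20 days, at least 37.9-fold higher. APRR2 g15212, which in tomato and pepper is tied to plastid and pigment development rather than to the clock, averaged 17.5 ± 4.23 FPKM at 4 months against 3.48 ± 0.715 FPKM at 20 days in MBP3-OE roots, an increase of 2.62 ± 0.29, and stood at 18.0 against 1.28 FPKM in WT roots.

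GIGANTEA, a large protein that ties light to the clock and to CONSTANS, was the most abundant of all these genes by FPKM. Gene g2051 (linkage group 1, 13788308 to 13794988) stood at 154, 169 and 140 FPKM at 4 months against 179, 131 and 147 FPKM at 20 days in MBP3-OE roots, with full overlap, and at 153 against 70.2 FPKM in WT roots. Gene g2053 lies 2.849 kb away on the same strand with the same description and was likewise not called, and the counting could have divided reads between them. GIGANTEA-like g42312 rose instead, with 11.1, 12.3 and 14.7 FPKM at 20 days, 13.0, 4.60 and 6.95 FPKM at 1 month and 68.9, 57.3 and 24.7 FPKM at 4 months in MBP3-OE roots, and 3.24, 3.63 and 22.0 FPKM in WT roots. Its change at 4 months against 20 days was 2.27 ± 0.48 (edgeR adjusted p = 0.00534) in MBP3-OE roots and 2.87 ± 0.85 in WT roots.

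Of the 5 EARLY FLOWERING genes, which include subunits of the evening complex, 1 rose at 4 months against 20 days in each genotype, where 17.5% of all genes in MBP3-OE roots and 11.5% in WT roots did. This was EARLY FLOWERING 4-like g5002, named after its values were seen, at 10.7, 12.4 and 9.33 FPKM at 4 months against 1.54, 1.00 and 2.21 FPKM at 20 days in MBP3-OE roots and at 8.24 against 0.855 FPKM in WT roots. The increases were 3.04 ± 0.42 and 3.37 ± 0.74. EARLY FLOWERING 4-like g25517, with a higher mean FPKM, was not called. It stood at 26.8, 7.53 and 8.52 FPKM at 4 months against 21.1, 16.3 and 25.8 FPKM at 20 days in MBP3-OE roots. In WT roots it stood at 22.9 against 9.45 FPKM. Both EARLY FLOWERING 3 genes, g44056 and g44057, lie 80 bp apart on the same strand, so that reads may have been divided between them, and were not called.

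**Figure D3:**
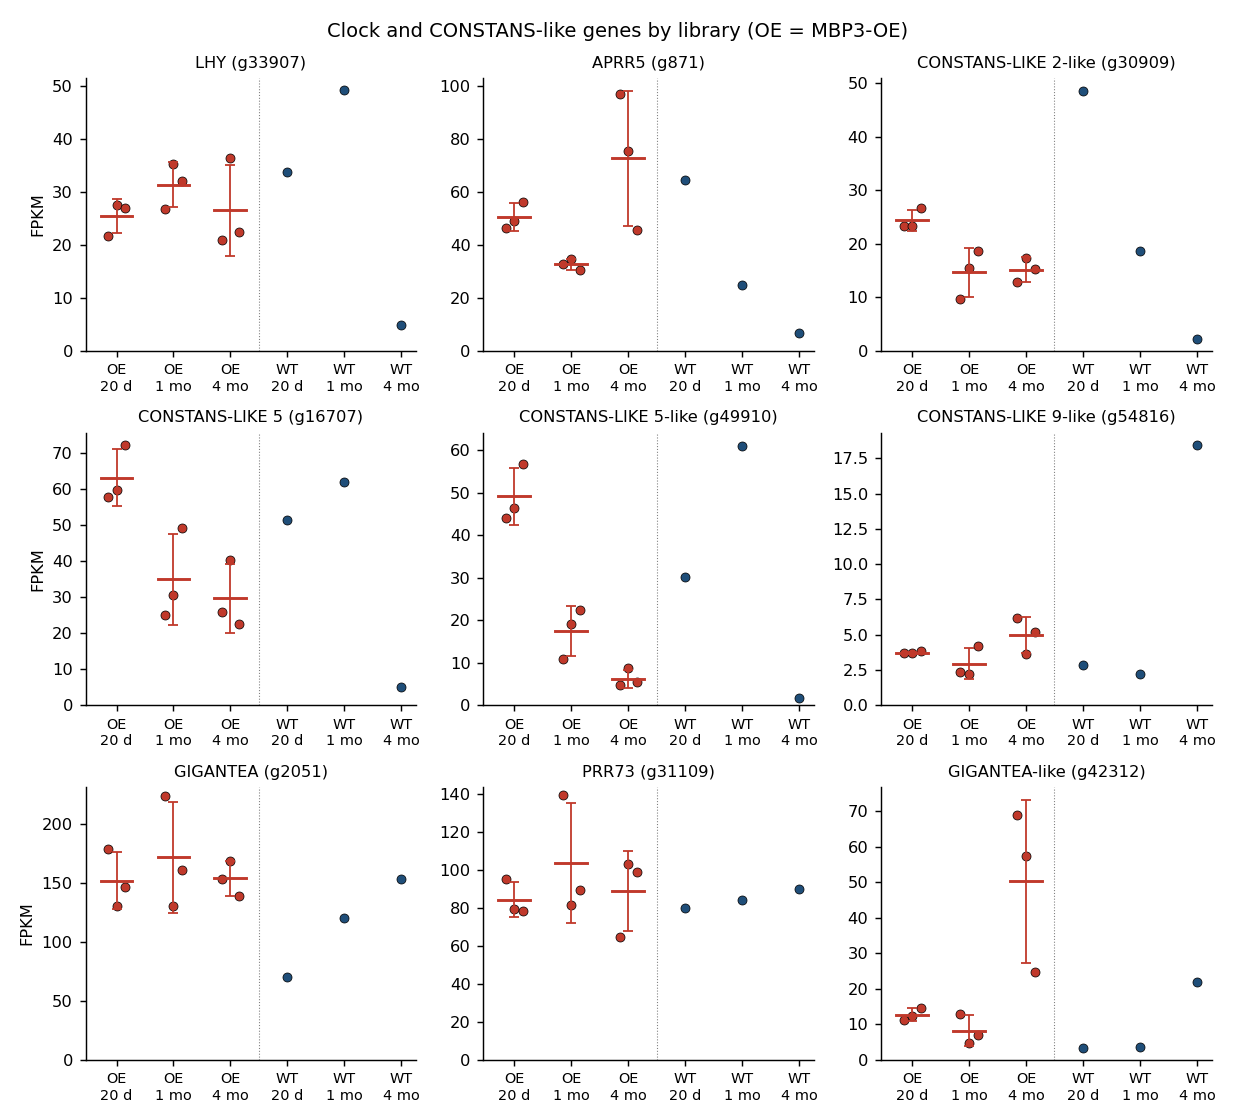
FPKM on linear axes from 0 for 5 clock genes and 4 CONSTANS-like genes, 1 panel each, with MBP3-OE (OE) groups on the left and WT groups on the right of the dotted line, at 20 days, 1 month and 4 months. Red points are MBP3-OE libraries with their mean and SD, and blue points are the single WT libraries; at 4 months LHY g33907 stands at 20.9 to 36.4 FPKM in MBP3-OE roots and 4.92 FPKM in WT roots, and APRR5 g871 at 45.8 to 96.8 and 6.80 FPKM.

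The CONSTANS-like genes, B-box proteins that include the photoperiod regulator of flowering, included genes that rose and genes that fell. Of the 21 tested, 7 rose and 3 fell at 4 months against 20 days in MBP3-OE roots, where 17.5% and 17.8% of all genes did. In WT roots 3 rose and 4 fell, where 11.5% and 9.15% of all genes did. CONSTANS-LIKE 5-like g49910 fell in both genotypes and was the only gene of the 80 to do so. It stood at 44.1, 46.5 and 56.8 FPKM at 20 days, 10.9, 19.0 and 22.4 FPKM at 1 month and 4.67, 8.69 and 5.42 FPKM at 4 months in MBP3-OE roots, and at 30.0, 61.1 and 1.74 FPKM in WT roots. The MBP3-OE ages did not overlap, and the WT library was the highest of its age at 1 month and the lowest at 4 months. The change at 4 months against 20 days was -2.72 ± 0.29 (edgeR adjusted p = 0.000251) in MBP3-OE roots and -3.99 ± 0.53 (adjusted p = 0.00311) in WT roots. CONSTANS-LIKE 4-like g924 fell in MBP3-OE roots, to 1.03, 1.23 and 0.693 FPKM at 4 months against 11.9, 4.78 and 5.40 FPKM at 20 days (-2.61 ± 0.47), and stood at 1.29 against 6.10 FPKM in WT roots, where the change of -2.12 ± 0.81 was not called.

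CONSTANS-LIKE 16-like g12473 (linkage group 3, 22653506 to 22656042) was close to silent in young roots. It stood at 0.0809, 0 and 0.154 FPKM at 20 days, 6.39, 1.08 and 4.40 FPKM at 1 month and 9.04, 14.2 and 21.1 FPKM at 4 months in MBP3-OE roots, an increase of 7.74 ± 1.08 (edgeR adjusted p = 0.000787). In WT roots it had 975 counts at 4 months and none at 20 days, at least 305-fold higher. CONSTANS-LIKE 2-like g30000 stood at 3.19, 3.0 and 3.83 FPKM at 4 months against 0.294, 0.439 and 0.270 FPKM at 20 days in MBP3-OE roots (3.59 ± 0.55), and at 0.931 against 0.544 FPKM in WT roots. CONSTANS-LIKE 4-like g50361 stood at 82.0, 69.9 and 54.5 against 22.1, 35.6 and 36.6 FPKM in MBP3-OE roots (1.41 ± 0.34), and at 16.7 against 23.3 FPKM in WT roots. Its neighbour g50362 begins 384 bp away on the other strand, and strand was not stated for the counting.

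Of the HEADING DATE genes, named from rice, 2 were tested and none was called between any ages. HEADING DATE REPRESSOR 1 (g35285) stood at 9.03, 16.4 and 20.7 FPKM at 4 months against 36.4, 36.9 and 34.5 FPKM at 20 days in MBP3-OE roots and at 14.2 against 27.9 FPKM in WT roots. The ages did not overlap, but the change of -0.95 ± 0.27 (edgeR adjusted p = 0.0201) was under 2-fold. HEADING DATE 3B-like g55252 changed by 0.76 ± 0.32 in MBP3-OE roots (adjusted p = 0.0823). The HEADING DATE 3A-like genes g54869 and g54865, relatives of FLOWERING LOCUS T, were too low to test, and g54869 was highest in a 1-month MBP3-OE library, at 0.895 FPKM.

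MBP3-OE and WT roots averaged over the 3 ages differed for no gene of the 80, where 0.164% of all tested genes were called by edgeR. There were 31 genes with an unadjusted p under 0.05, and DESeq2 called 11. The lowest adjusted p was 0.0531, for LSH10-like g34656, at 24.1, 37.2 and 29.7 FPKM in MBP3-OE roots and 11.5 FPKM in WT roots at 4 months and with a mean difference of 1.04 ± 0.16 over the ages. Phytochrome E (g37417) came next, with a difference of 1.14 ± 0.19 and the same adjusted p. For the difference between genotypes in the change from 20 days to 1 month edgeR again called none of the 80, where 0.00% of all genes were called, with 8 genes under an unadjusted p of 0.05 and 1 called by DESeq2. For the change to 4 months it also called none, against 0.00% of all genes, with 22 genes under an unadjusted p of 0.05, 9 called by DESeq2 and 3 by limma on log2(FPKM + 1). The shares of all genes given here are those of edgeR. Shares under that unadjusted p, or called by DESeq2 or limma, are not given, so those counts have no background beside them.

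Within single ages the WT library can only be set beside the 3 MBP3-OE libraries, with no test. At 4 months, 19 genes, 23.8% of the 80, stood in all 3 MBP3-OE libraries more than 2-fold above the WT library, where 2.89% of all tested genes did, and 6 genes, 7.5%, stood more than 2-fold below it, where 3.57% did. At 20 days 7 genes stood above, 8.75% against 4.90% of all genes, and none below, against 3.84% of all genes, and at 1 month 2 stood above, 2.5% against 3.14%, and 1 below, 1.25% against 2.03%. The 19 genes at 4 months rest on 1 WT library. They included LHY, APRR5 g871 and several CONSTANS-like genes. CONSTANS-LIKE 2-like g30909 stood at 12.9, 17.4 and 15.3 FPKM in MBP3-OE roots and 2.17 FPKM in WT roots at 4 months, and at 23.3, 23.3 and 26.6 against 48.6 FPKM at 20 days, so the order of the genotypes was opposite at the 2 ages. Its change at 4 months against 20 days was -0.41 ± 0.22 in MBP3-OE roots and -4.37 ± 0.44 (edgeR adjusted p = 0.00178) in WT roots, and the difference of 3.96 ± 0.47 had an adjusted p of 0.0853. CONSTANS-LIKE 5 g16707 stood at 26.0, 40.5 and 22.5 FPKM in MBP3-OE roots against 5.06 FPKM in WT roots at 4 months. CONSTANS-LIKE 4-like g54384, named after its values were seen, stood at 30.9, 25.9 and 32.9 against 2.03 FPKM.

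Of the 6 genes below WT at 4 months, CONSTANS-LIKE 9-like g54816 stood at 6.19, 3.62 and 5.16 FPKM in MBP3-OE roots and 18.5 FPKM in WT roots. The 4-month increase in WT roots was 2.79 ± 0.57 (edgeR adjusted p = 0.0123). The neighbours CONSTANS-LIKE 10-like g59013 and g59014, 1.03 kb apart, were the same way round, with g59013 at 3.20, 1.38 and 1.94 FPKM in MBP3-OE roots and 12.7 FPKM in WT roots; both were named after their values were seen. Phototropin-2-like g17744, REVEILLE 2-like g510 and LSH1-like g25696 made up the rest.

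**Figure D4:**
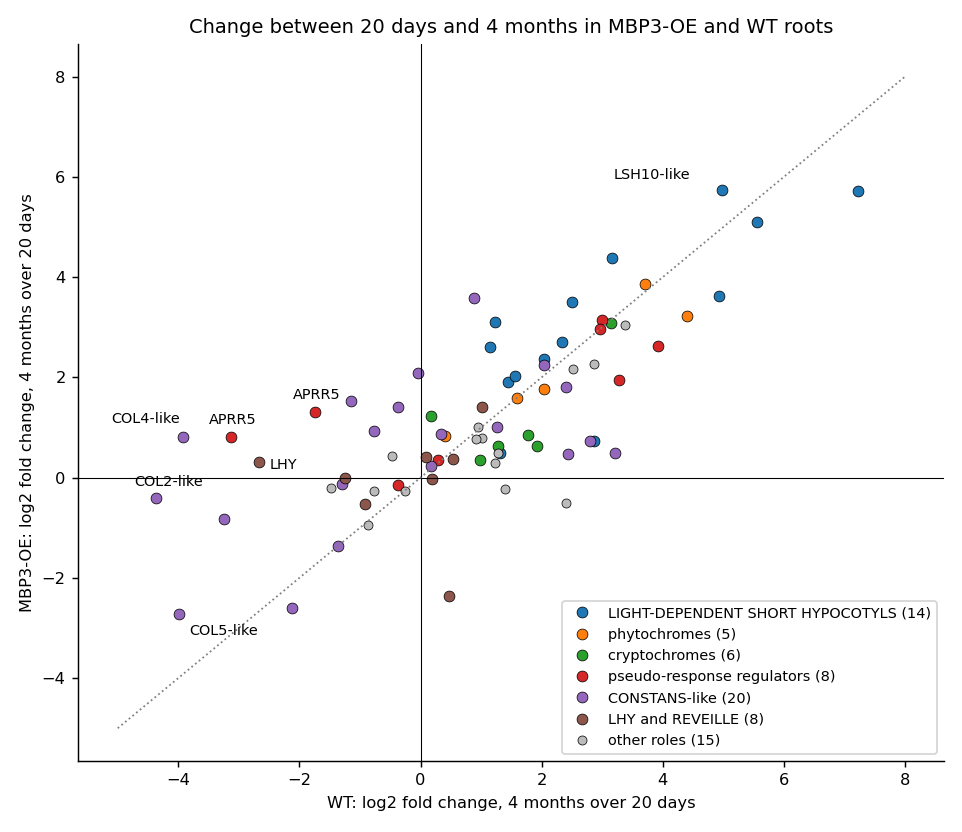
Log2 fold change at 4 months over 20 days (edgeR) in MBP3-OE roots (vertical axis) and WT roots (horizontal axis) for 76 of the 80 tested genes, coloured by role, with a dotted line where both are equal; the 4 genes with no count in the 20-day WT library are left out, and COL stands for CONSTANS-LIKE. LHY g33907, APRR5 g871 and CONSTANS-LIKE 2-like g30909 lie at 0.32, 0.81 and -0.41 in MBP3-OE roots and at -2.67, -3.14 and -4.37 in WT roots.

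Other genes of the same pathways were followed as 3 lists. Among 79 tested light-signalling genes outside the 98, 19 rose and 5 fell at 4 months against 20 days in MBP3-OE roots, and 19 rose and 1 fell in WT roots, with median changes of 0.63 and 0.27. Over all genes 17.5% rose and 17.8% fell in MBP3-OE roots, and 11.5% rose and 9.15% fell in WT roots. Of these 79 genes, 43 are FAR1-related, and 4 are DNA helicases matched only through the letters PIF1. Without the helicases 18 rose and 5 fell in MBP3-OE roots and 19 rose and 1 fell in WT roots. PIF1-like g5235, a bHLH factor that phytochromes target for removal, stood at 30.5, 10.4 and 25.7 FPKM at 4 months against 0.895, 0.636 and 0.772 FPKM at 20 days in MBP3-OE roots (5.17 ± 0.57) and at 5.57 against 0.595 FPKM in WT roots. Genes described as the UV-B receptor UVR8 went both ways. UVR8 g62938 stood at 21.6, 21.2 and 23.1 against 5.05, 3.19 and 4.30 FPKM in MBP3-OE roots (2.69 ± 0.28) and at 28.7 against 2.97 FPKM in WT roots. UVR8 genes g12162 and g50497 also rose in MBP3-OE roots, by 1.285 and 1.223. UVR8 genes g1236, g20828 and g3713 fell there, with changes of -1.674, -1.866 and -1.385. Of 15 other clock genes, 2 rose and none fell in MBP3-OE roots, and 2 rose and 2 fell in WT roots, with medians of 0.07 and 0.21. The 2 increases in MBP3-OE roots are no larger a share than the 17.5% of all genes. The LNK proteins, partners of REVEILLE proteins in Arabidopsis, were the ones that fell in WT roots, LNK1 g59490 to 6.37 FPKM at 4 months against 62.0 FPKM at 20 days (-3.17 ± 0.46) and LNK2 g30550 to 9.63 against 55.7 FPKM (-2.42 ± 0.44). MBP3-OE roots held 39 to 57.7 and 32.4 to 65.4 FPKM at 4 months. The PCL1-like genes, of the evening factors, went different ways at 4 months. PCL1-like g9992 stood at 12.4 FPKM in WT roots and between 0.796 and 1.69 FPKM in MBP3-OE roots. PCL1-like g24716 stood the other way round, at 3.62 FPKM in WT roots and 9.64, 6.21 and 9.60 FPKM in MBP3-OE roots. In PCL1-like g58648 the WT library, at 2.85 FPKM, lay within the MBP3-OE range of 2.26 to 4.23 FPKM. Among 62 other flowering genes 11 rose and 5 fell in MBP3-OE roots and 5 rose and 8 fell in WT roots, with medians of 0.14 and 0.12. The increases in MBP3-OE roots are near the 17.5% of all genes. CEN-like protein 1 g20567, a relative of the flowering repressor TERMINAL FLOWER 1, was listed at 0, 0 and 0.0488 FPKM at 4 months against 16.6, 26.0 and 24.0 FPKM at 20 days in MBP3-OE roots and at 0.276 against 12.7 FPKM in WT roots.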

How the data were processed

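Root RNA was sequenced from 9 MBP3-OE and 3 WT libraries, grouped by genotype and age as labelled. According to the submitters' processing notes, the authors used cutadapt 1.9 for trimming, HISAT2 2.0.4 for alignment to a genome of the Ipomoea Genome Hub and StringTie 1.3.4d for assembly. The authors deposited a raw read count and an FPKM value per gene and library. The authors' formula for FPKM divides exon fragments by mapped reads and exon length. How the counts were made, and whether by strand, is not given in the sources used here. Counts were fitted with edgeR 4.0.16 (R 4.3.3) by TMM scaling and the quasi-likelihood test, with 1 mean for each of the 6 groups, 6 residual degrees of freedom, and genes averaging at least 0.5 FPKM. Values per library are the deposited FPKM values. Alternatives were DESeq2 1.42.0, limma 3.58.1, other scaling, no filter, a replicate block and leaving out each MBP3-OE library. Fits were tested on simulated data.

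The members and gene lists were chosen with earlier results of these data known. The rule for naming genes took the 3 with the highest mean FPKM of each role, up to 10 with the largest called change in each comparison, and g37417, g12473 and g17744. Not all of these are described. Left out are g24973, g16868, g30340, g50353, g33118, g49841 and g42818, and g60148 is shown only in a figure. These were among the 3 most abundant of their roles and were called in no comparison, so the genes described lean towards those that changed. Other genes, among them g15212, g34665, g25696, neighbouring genes and those of the other pathways, were named after their values were seen. The phytochrome partner proteins were set apart from the phytochromes after their descriptions were read. The annotation reference at hand is of another genome assembly and shares no gene identifier with the table, so no sequence is shown.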

Additional observations from a re-analysis of the deposited data

Results flagged for a closer look

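For 6 genes, called or not, every 4-month MBP3-OE library lay on one side of all 20-day ones and the WT libraries stood the other way round. The share of all tested genes that did the same is not given here, so the count of 6 has no background beside it. A WT change of any size was enough, as in g1212. The difference between the genotypes was tested and did not pass in edgeR. REVEILLE 2-like g510 changed by -2.37 in MBP3-OE roots and 0.47 in WT roots, a difference of -2.85 with an edgeR adjusted p of 0.169, whereas DESeq2 called that difference with an adjusted p of 0.00372. APRR5 g20699 changed by 1.31 in MBP3-OE roots and -1.74 in WT roots (edgeR adjusted p of the difference 0.198, DESeq2 0.00569). CONSTANS-LIKE 4-like g50361 changed by 1.41 in MBP3-OE roots and -0.37 in WT roots (edgeR adjusted p of the difference 0.386). CONSTANS-like g1212 changed by 2.10 in MBP3-OE roots and -0.04 in WT roots (edgeR adjusted p of the difference 0.419). CONSTANS-LIKE 4-like g50362, the neighbour of g50361, changed by 0.93 in MBP3-OE roots and -0.76 in WT roots (edgeR adjusted p of the difference 0.397). Phototropin-2-like g17744 changed by -0.50 in MBP3-OE roots and 2.40 in WT roots (edgeR adjusted p of the difference 0.131), and DESeq2 called that difference. Each WT value rests on 2 single libraries.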

How the results depend on the processing

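No called effect of a gene changed sign: of 2193 values of 140 called effects under the alternatives, 1945 (88.7%) stayed called in the same direction and 248 lost the call. In MBP3-OE roots 35 of the 41 calls at 4 months against 20 days, 13 of the 22 at 1 month against 20 days and 14 of the 30 at 4 months against 1 month were made under every alternative, as were 26 of the 35 in WT roots at 4 months against 20 days. The fewest stable calls were those of WT roots at 1 month against 20 days, 4 as reported, 1 with DESeq2's size factors in edgeR, 0 without the filter, 16 with DESeq2, 9 with limma on log2(FPKM + 1) and 8 with limma voom and a weight per age, an alternative chosen after seeing the data. For WT roots at 4 months against 1 month, 8 calls became 26 with DESeq2 and 17 with limma. Against the 0 calls of edgeR, DESeq2 called 11 genes between genotypes averaged over ages, 1 for the difference in the 1-month change, and 9 for that in the 4-month change, where limma called 3. The shares of all genes that DESeq2 and limma called are not given here.

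Leaving out 1 MBP3-OE library gave 14 to 25 calls at 1 month against 20 days, 37 to 44 at 4 months against 20 days and 20 to 32 at 4 months against 1 month in MBP3-OE roots, and 0 to 8, 31 to 41 and 5 to 19 for the same pairs of ages in WT roots. It gave 0 to 2 between genotypes and 0 to 1 for the difference in the 4-month change. The labels give the replicate numbers 2, 3 and 8 at each age, but same-numbered libraries did not deviate together (correlations of -0.04 to 0.09), so they were not treated as pairs; with the replicate number as a block the calls were 19, 39 and 27 in MBP3-OE roots and 0, 31 and 7 in WT roots, in the order of comparisons above. By a 2-fold change of FPKM alone, with no test, 51 genes passed in WT roots at 4 months against 20 days with a pseudocount of 1 and 56 with 0.1. One WT library per age, a spread borrowed from MBP3-OE libraries and levels under 1 FPKM limit what these comparisons can resolve.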
